A study of Mus musculus with 60 samples.

Results

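Extracellular adenosine builds up in brain tissue during wakefulness and promotes sleep, and the genes that make, move and remove it were described here over 9 groups of mice. The list held 9 genes: the receptors Adora1, Adora2a and Adora2b, the enzymes Adk, Ada and Nt5e, and the transporters Slc29a1, Slc29a2 and Slc29a4. Members were found by gene symbol in the table that pairs the array's probesets with genes, and where a gene had more than 1 probeset the one with the highest mean was used. That table names 22180 genes as the only gene of a probeset in the file. Probesets with several gene names were not used. No probeset had any of the 3 receptors as its only named gene, and they were therefore not analysed here. The members measured are thus genes of adenosine metabolism and transport. Of the adenosine receptors, Adora3, which is no member, was measured. The other 6 genes each had a probeset with a log2 value over 4 on 59 of 59 arrays.

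RNA came from left-hemisphere cortex of male C57BL/6J mice, 2 months old, each hybridised to 1 whole-transcript Affymetrix mouse gene array. All mice were handled daily before the experiment. The CC groups were left undisturbed and killed at Zeitgeber time (ZT, hours after lights on) 0, 6, 7, 8 or 11 (CC0, CC6, CC7, CC8 and CC11). SD mice were kept awake for 6 h by brushing and killed at ZT 6. RS2 mice had 6 h of sleep deprivation and 2 h of recovery sleep, RS3 mice 5 h and 3 h (both killed at ZT 8), and RS6 mice 5 h and 6 h (ZT 11). There were 7 mice per group except CC7 (6) and RS2 (4), and 1 further array with conflicting labels was left out of every comparison. Sleep was not recorded in these mice, so the deprivation and recovery times are those of the protocol.

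Adenosine arises outside the cell when ATP released by neurons and glia is cut down to AMP and then to adenosine, the last step being carried out by the ecto-5'-nucleotidase encoded by Nt5e (CD73). Equilibrative transporters, encoded by the Slc29 genes, carry adenosine down its gradient across the membrane. Inside the cell adenosine kinase (Adk), which in the adult brain is mainly an astrocyte enzyme, returns it to AMP, and adenosine deaminase (Ada) converts it to inosine.

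Values are log2 intensities after robust multi-array averaging (RMA). Differences between groups were taken from a single limma fit over the 59 arrays, with 6 factors of unwanted variation estimated by RUV beside the 9 group means. A difference was called at a false discovery rate (FDR) under 0.01 after Benjamini-Hochberg adjustment over all 32819 probesets kept. Ranges marked ± are standard deviations between mice, intervals are 95% intervals for each probeset alone, and levels of different genes cannot be set against each other because probes differ. The number of mice limits the precision. A set of 5 arrays stood apart from the rest on the first principal component of the RMA values: replicate 1 of CC0, CC8, SD and RS6, and replicate 2 of SD. Between 78.1% and 81.1% of probesets were over a log2 value of 4 on each array. The mean of the excitatory neuron markers lay between 9.42 and 9.47 in the groups and that of the choroid plexus markers between 5.36 and 5.64, with 1 CC0 mouse at 6.61 and 1 RS6 mouse at 6.41. A lower level in a tissue sample can come from fewer cells of a type or from less RNA per cell, which cannot be told apart.

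None of the 6 genes was called after sleep deprivation, after recovery sleep or between times of day, and the groups compared overlapped for every gene. With RUV the smallest adjusted p over the 42 member tests was 0.307 (Ada, CC11 against CC6). Also with RUV, the 95% intervals for all 42 differences, each for 1 probeset alone, lay within 1.34-fold of no change. Intervals from the RMA values alone reached further, to a log2 difference of -0.59 for Nt5e in SD against CC6. Of the 6 genes, 0 were called in SD against CC6, where 1.93% of all probesets were called. None was called in RS2 against CC8 (background 0.299%), RS3 against CC8 (0.171%), RS6 against CC11 (0.149%), CC6 against CC0 (0.158%), CC11 against CC0 (0.975%) or CC11 against CC6 (0.265%). In SD against CC6, 3 genes had a positive and 3 a negative difference, with a median of -0.0041 beside 0.00083 over all probesets. With 6 genes, a count of 0 differs little from these background shares. At an unadjusted p under 0.05, 1 of the 42 tests passed with RUV and 4 of 42 with the RMA values alone. Of the 4, 3 were in SD against CC6 (Adk, Ada and Nt5e), where 21.5% of all probesets reached that p in the RMA values, and 1 in CC11 against CC0 (Nt5e), where 17% did. In the comparisons with 0 of 6 the RMA share was 4.45% in RS2, 5.16% in RS3, 10.6% in RS6, 6.3% in CC6 against CC0 and 9.38% in CC11 against CC6. The 1 with RUV was Ada in CC11 against CC6, where 15.4% of all probesets reached that p with RUV. In the other comparisons the share of all probesets was 15.9% in SD against CC6, 10.5% in RS2, 11.7% in RS3, 14.1% in RS6, 9.49% in CC6 against CC0 and 15.5% in CC11 against CC0. Groups that did not overlap in RMA values were also rare over all probesets, at 1.6% in SD against CC6, 1.01% in RS2, 0.308% in RS3, 0.381% in RS6, 0.0853% in CC6 against CC0, 0.628% in CC11 against CC0 and 0.652% in CC11 against CC6. The plot of single arrays shows the values behind these tests.

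**Figure D1:**
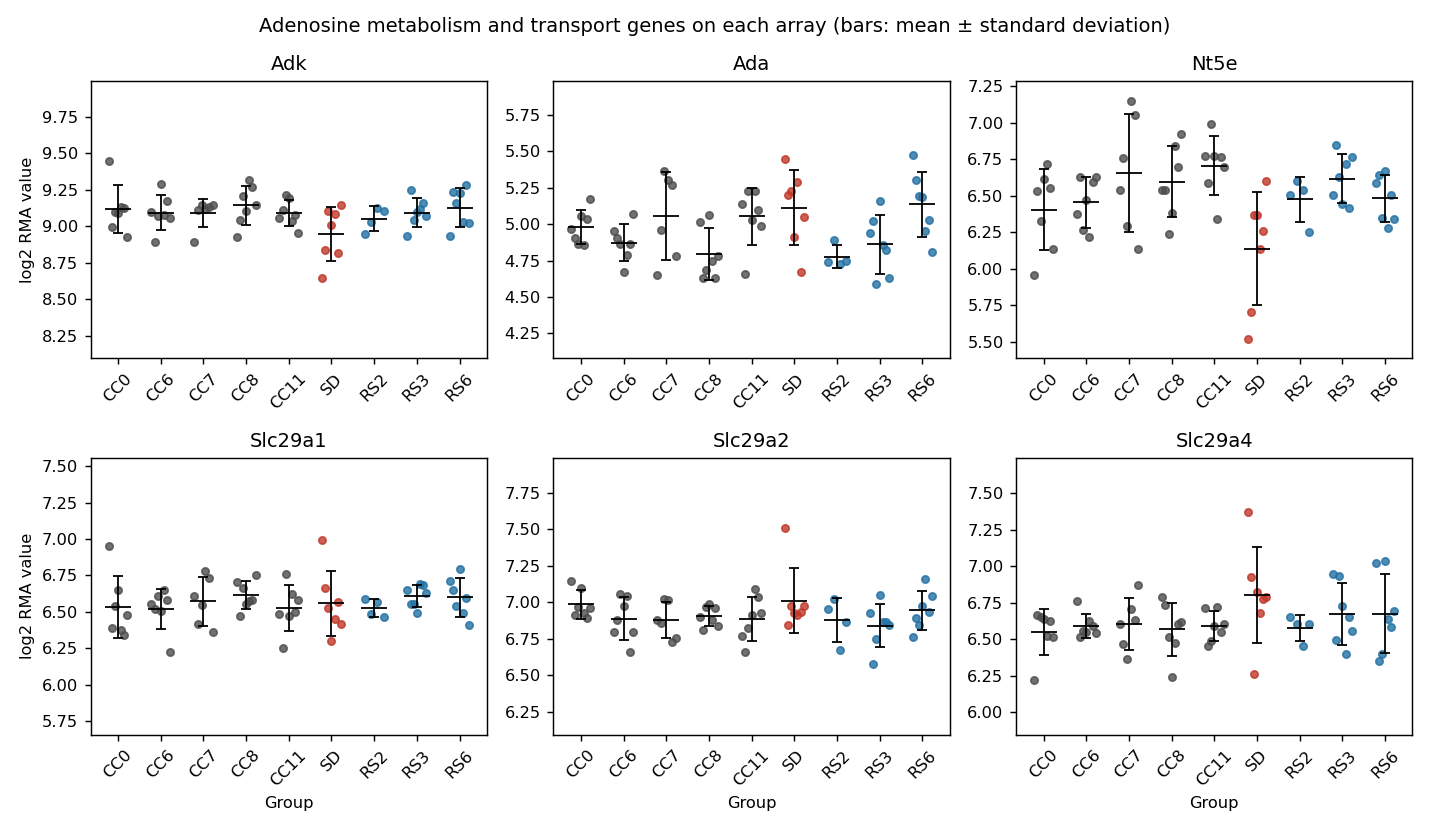
Log2 RMA value (y axis) of the 6 measured genes on each of the 59 arrays by group (x axis), each point 1 mouse, with the mean and standard deviation as bars; grey points are undisturbed mice, red sleep-deprived and blue recovering mice. All panels span the same log2 range, and the SD group of Nt5e reaches lowest, to 5.52.

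The metabolic enzymes come first. Adk is annotated on chromosome 14 at 21052574-21448569 (GRCm38.p6), and RefSeq gives it 2 start sites, which fits the known long and short forms of the enzyme, one found mainly in the nucleus and the other in the cytoplasm. The array has 1 probeset named for Adk alone, and its values cannot separate transcripts from the 2 starts. The windows of both starts are printed here because they are what the single value leaves joined. The sequences are RefSeq promoter windows of the same build, 250 bases before to 50 after the start on the plus strand, 5' to 3', at chr14:21052324-21052623 and chr14:21075902-21076201. Capitals mark matches to any of 5 motifs searched on both strands: the cyclic AMP response element TGACGTCA, its short core TGACG, the E-box CACGTG, the Egr motif GCGTGGGCG and the AP-1 motif TGANTCA.
Adk upstream start: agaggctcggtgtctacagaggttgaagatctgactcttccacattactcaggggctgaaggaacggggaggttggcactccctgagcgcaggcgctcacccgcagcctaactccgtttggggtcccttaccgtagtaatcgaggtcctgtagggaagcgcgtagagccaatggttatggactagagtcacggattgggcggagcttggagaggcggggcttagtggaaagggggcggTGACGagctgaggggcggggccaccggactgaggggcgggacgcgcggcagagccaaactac
Adk downstream start: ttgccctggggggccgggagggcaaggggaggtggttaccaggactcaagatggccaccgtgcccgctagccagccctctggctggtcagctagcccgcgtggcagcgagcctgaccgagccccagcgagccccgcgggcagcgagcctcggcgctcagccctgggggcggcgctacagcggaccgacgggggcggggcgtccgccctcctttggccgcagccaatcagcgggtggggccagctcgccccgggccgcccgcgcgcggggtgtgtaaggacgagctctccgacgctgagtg
The upstream window held 1 short core, which 20.8% of 32851 mouse promoter windows also held, and the downstream window held no match. The windows differed in GC content, at 61.7% upstream and higher downstream, against a median of 52.7% over all windows.

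The Adk level was nearly flat over the groups. In CC6 it ran from 8.89 over a median of 9.07 to 9.29, and in SD from 8.65 over 9.01 to 9.15. The SD group therefore reached lower while most of its values lay within the control range. With RUV the difference was -0.05 (SE 0.05, interval -0.14 to 0.04, limma adjusted p = 0.679), whereas RMA values alone gave -0.14 (adjusted p = 0.229). The median of 12 astrocyte markers in SD against CC6 was -0.11 in the RMA values and 0.02 with RUV. The markers went both ways in the RMA values, from -0.40 (Gli3) to 0.21 (Aldh1l1). Their part in the Adk result was not tested. Adk was -0.09 in RS2 (interval -0.20 to 0.01), -0.05 in RS3 (-0.14 to 0.04) and 0.08 in RS6 (-0.02 to 0.17) relative to time-matched controls. These signs differ, yet the RS6 effect minus the SD effect was 0.13 (SE 0.06) with an adjusted p of 0.350. After RUV the group means of Adk fell in the order RS6, CC8, CC6, RS3, CC7, CC0, CC11, SD and RS2. From highest to lowest they spanned 0.09, against a median spread within groups of 0.08.

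Ada lies on chromosome 2 at 163726571-163750239 on the minus strand and encodes the enzyme that deaminates adenosine. Its probeset was the dimmest of the 6, with a mean of 4.97, not far above the filter of 4. With RUV it had the smallest p of the 6 genes, and its window (chr2:163750190-163750489) is printed for that reason. The window held an Egr motif, found in 0.612% of all windows and also in 1 of the 8 windows of Slc29a1. The match, in capitals, is a description of the letters and not a binding site.
Ada: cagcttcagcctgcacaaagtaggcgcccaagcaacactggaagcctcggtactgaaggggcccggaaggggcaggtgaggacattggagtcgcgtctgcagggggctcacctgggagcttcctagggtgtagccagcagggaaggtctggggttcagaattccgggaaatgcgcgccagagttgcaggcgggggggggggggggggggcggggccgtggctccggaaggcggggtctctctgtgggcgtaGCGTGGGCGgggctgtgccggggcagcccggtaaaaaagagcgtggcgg

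Ada was highest in the RS6 group at 5.13 ± 0.22 and lowest in RS2 at 4.78 ± 0.08. In CC6 the values ran from 4.67 over 4.86 to 5.07 and in SD from 4.67 over 5.20 to 5.44. SD mice thus lay higher at the median with overlap through most of the control range. The difference was 0.16 (SE 0.11, interval -0.06 to 0.38, adjusted p = 0.518) and 0.24 in the RMA values (adjusted p = 0.174). In recovery it was 0.01 in RS2, 0.08 in RS3 and 0.04 in RS6, each with an interval that spans 0. Ada was also compared between times of day in undisturbed mice. CC8 mice ran from 4.63 to 5.06 and CC11 mice from 4.66 to 5.23. CC11 exceeded CC6 by 0.21 (SE 0.10, interval 0.0066 to 0.42, unadjusted p = 0.0434 and adjusted p = 0.307 by limma), and the 2 groups overlapped. CC11 minus CC0 was 0.11 (SE 0.11). All 6 genes were tested for any difference among the 9 groups with an F test, in which Ada had the smallest adjusted p at 0.102 and 4.43% of all probesets were called. Among the 5 undisturbed groups Ada had an adjusted p of 0.281, against 0.896% of probesets called. The order of the means after RUV was RS6, CC11, CC7, SD, CC0, CC6, RS3, RS2 and CC8, so that both ZT 11 groups stood at the top and the 3 groups killed at ZT 8 at the bottom. From highest to lowest these 9 means spanned 0.33, against a median spread within groups of 0.17.

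Nt5e, which encodes the ectoenzyme that forms adenosine from AMP outside the cell, lies on chromosome 9 at 88327609-88372089. Of the 6 genes it had the widest range of RMA group means, from 6.14 ± 0.39 in SD to 6.70 ± 0.20 in CC11. CC6 values ran from 6.21 over 6.47 to 6.63, and SD values from 5.52 over 6.26 to 6.60. The 2 lowest SD mice, replicates 1 and 2 at 5.52 and 5.70, were 2 of the 5 arrays that stood apart, and the other 5 lay between 6.13 and 6.60. In the RMA values SD minus CC6 was -0.32 (adjusted p = 0.162). With RUV it was -0.14 (SE 0.10, interval -0.35 to 0.07, adjusted p = 0.588), and without the 5 arrays -0.06 (adjusted p = 0.851). Recovery gave -0.11 in RS2 (SE 0.12), -0.01 in RS3 (SE 0.10) and -0.16 in RS6 (SE 0.10), the last with an adjusted p of 0.514. Between undisturbed groups Nt5e was 0.20 higher in CC11 than in CC0 (SE 0.10, adjusted p = 0.356) and 0.18 higher than in CC6 (SE 0.10, adjusted p = 0.380). Without the 5 arrays the CC11 minus CC6 difference was 0.28 (adjusted p = 0.175). The order after RUV was CC11, CC7, CC8, RS3, RS6, RS2, CC6, CC0 and SD. These means spanned 0.32, against a median spread within groups of 0.18. The F test over the 9 groups gave Nt5e an adjusted p of 0.352.

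Nt5e moved with markers of striatum, the region below the cortex that a cortical dissection can touch. Of 14 striatum markers, 12 were kept and none was called in the 7 comparisons. Their median difference was -0.21 in SD against CC6, -0.38 in RS2, 0.01 in RS3 and -0.37 in RS6. Between undisturbed groups it was -0.08 in CC6 against CC0, 0.38 in CC11 against CC0 and 0.47 in CC11 against CC6. The Nt5e difference had the other sign in RS3 (-0.01) and in CC6 against CC0 (0.01). The mean of the 12 markers ran between 7.86 and 8.66 in SD mice, 7.98 and 8.93 in CC6 and 8.43 and 9.07 in CC11. Across the 59 arrays, with group means removed, Nt5e and the marker mean had a Pearson r of 0.505 (permutation p = 0.00021, adjusted 0.00126 over 6 genes, two-sided, 100000 shuffles within groups) and a Spearman rho of 0.515 (p = 0.00011, adjusted 0.00066). Without the 2 arrays farthest from the median marker mean r was 0.472, and without the 5 arrays that stood apart it was 0.648. Within the arrays of each replicate number r was above 0 for all 7 numbers and ranged from 0.0788 to 0.904. The other 5 genes had r between -0.285 and 0.319, with adjusted p from 0.0519 upwards for Pearson r. Slc29a1 had a rho of 0.370 (permutation p = 0.00815, adjusted 0.0245). With the marker mean as a covariate, the Nt5e difference was -0.08 in SD, 0.01 in RS2, -0.01 in RS3 and -0.06 in RS6. Between undisturbed groups it was 0.03 in CC6 against CC0, 0.09 in CC11 against CC0 and 0.06 in CC11 against CC6. Under the same covariate Ada had 0.30 in CC11 against CC6 (limma adjusted p = 0.202). The part of striatal tissue in the Nt5e differences was not tested. The plot of Nt5e against these markers shows both relations.

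**Figure D2:**
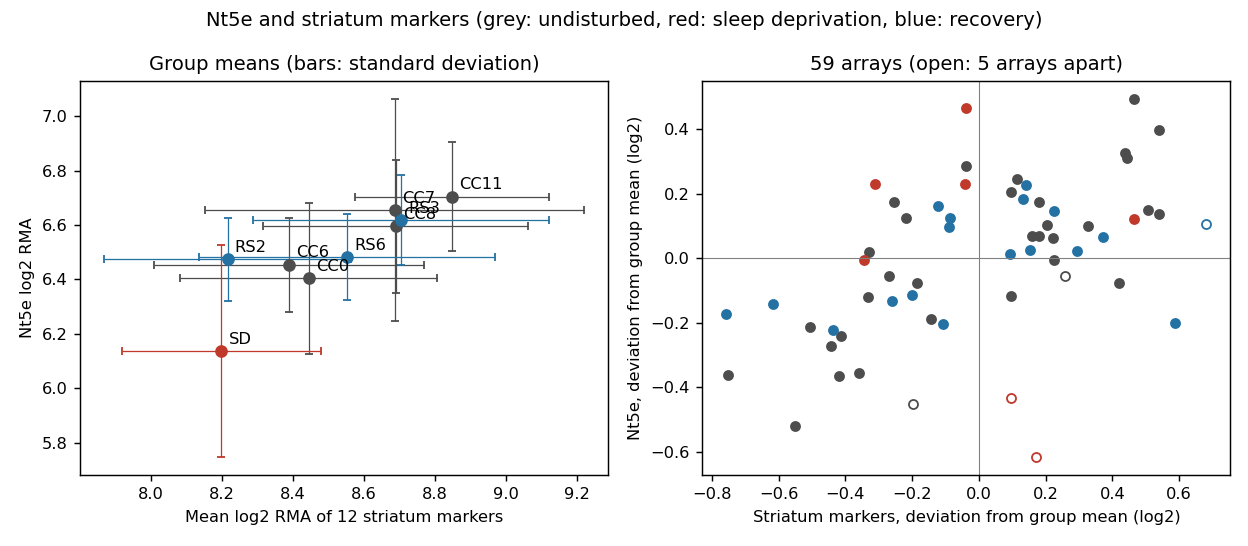
Left, group means of Nt5e (y axis, log2 RMA) against the mean of 12 striatum markers (x axis, log2 RMA) with standard deviations as bars; right, the deviations of both from their group means on the 59 arrays, with the 5 arrays that stood apart as open points. CC11 is highest and SD lowest on both axes of the left panel, and the right panel has a Pearson r of 0.505.

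The equilibrative nucleoside transporters had differences within the spread between mice in all 7 comparisons. Slc29a1 (ENT1), on chromosome 17 at 45585200-45599618, is the main high-affinity carrier of adenosine in brain. It had RMA means from 6.52 in CC6 to 6.62 in CC8, and 6.11% of its variation lay between groups, where the median over all probesets was 16.9%. SD values ran from 6.30 over 6.53 to 6.99 and CC6 values from 6.22 over 6.55 to 6.65. The groups overlapped almost wholly, the highest SD value being replicate 1. The difference was -0.05 with RUV (SE 0.07, interval -0.19 to 0.08, adjusted p = 0.759) and 0.04 in the RMA values, so that its sign depended on the factors. RS2, RS3 and RS6 differed from their controls by -0.06, 0.01 and 0.02. RefSeq gives Slc29a1 8 start windows, and the 1 probeset used cannot tell them apart. A second probeset of Slc29a1 was over 4 on 5 of 59 arrays and was not used.

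Slc29a2 (ENT2), a lower-affinity carrier on chromosome 19 at 5019057-5031972, ranged between RMA means of 6.84 in RS3 and 7.01 in SD. SD values ran from 6.85 over 6.94 to 7.51, and CC6 values from 6.66 over 6.88 to 7.06. One mouse, replicate 1 of SD, carried the high end, the other 6 lying between 6.85 and 6.98. The SD difference was 0.04 (SE 0.07, interval -0.09 to 0.18, adjusted p = 0.832). In RS2, RS3 and RS6 it was -0.01, -0.04 and 0.03. CC6 minus CC0 was -0.09 (SE 0.07, adjusted p = 0.718).

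Slc29a4 (PMAT), on chromosome 5 at 142692478-142722490, carries monoamines as well as adenosine. It had its highest RMA mean in SD, 6.80 ± 0.33, and its lowest in CC0, 6.55 ± 0.16. The SD mice ran from 6.26 over 6.79 to 7.37, against 6.51 over 6.56 to 6.76 in CC6. There were 5 of the 7 SD mice above every CC6 mouse, and the spread of the SD group was also the widest of the 9. The difference was 0.09 with RUV (SE 0.09, interval -0.09 to 0.27, adjusted p = 0.690) and 0.21 in the RMA values (adjusted p = 0.235). Recovery gave 0.04 in RS2, 0.12 in RS3 (SE 0.08, adjusted p = 0.605) and 0.03 in RS6. For the 3 transporters the RUV means spanned 0.12 to 0.14 from highest to lowest, against median spreads within groups of 0.10 to 0.14.

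**Figure D3:**
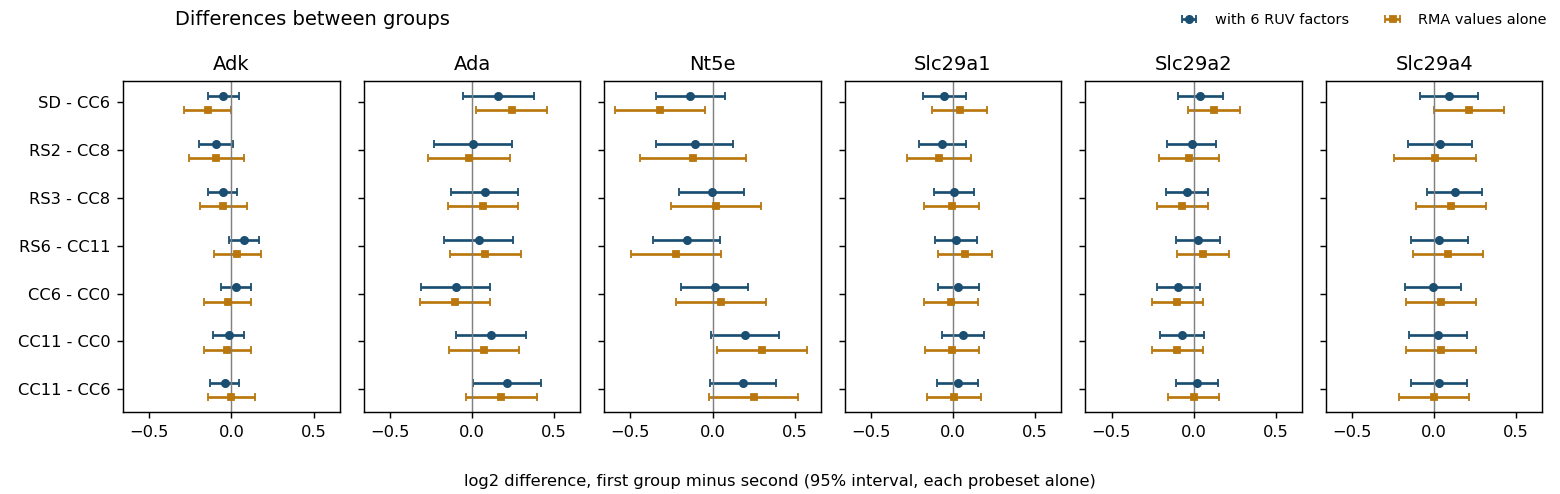
Log2 difference (x axis) of the 6 genes in the 7 comparisons (y axis), first group minus second, with 95% intervals; circles are the fit with 6 RUV factors and squares the RMA values alone. The intervals with RUV run from -0.36 to 0.42, and the RMA values place Nt5e in SD lowest, at -0.32.

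The recovery effects were also set against the sleep deprivation effect. None of the 6 genes was called for RS2 (background 0.0518%), RS3 (0.207%) or RS6 (1.03%), and the differences ran from -0.15 to 0.13 on the log2 scale. The SD and recovery comparisons have separate controls, but RS2 and RS3 share CC8. How large a difference could have been called depended on the gene. In SD against CC6 it had to reach 0.19 for Adk and 0.44 for Ada, and in RS2 against CC8, with 4 mice, 0.24 and 0.55. These are cutoffs on the estimated difference, and true changes near or below them could have been missed.

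The genes differed in how much of their variation the RUV factors took up. The factors held 67.0% of the variation within groups for Adk, 54.3% for Nt5e, 51.8% for Slc29a1, 45.5% for Slc29a4, 40.3% for Slc29a2 and 18.7% for Ada, around a median of 41.3% over all probesets. Of the 15 pairs among the 6 genes, Adk and Slc29a4 had the strongest relation across the 59 arrays with group means removed. Their Pearson r was -0.525 (permutation p = 0.00025, adjusted 0.00375) and rho -0.468 (p = 0.0007, adjusted 0.0105). It was -0.400 without the 2 arrays most extreme for Adk, -0.230 without the 5 arrays that stood apart and -0.237 with the factors removed, so that it was weaker without those arrays. Nt5e and Slc29a2 had an r of -0.403 (permutation p = 0.0043, adjusted 0.0323), -0.274 without the 5 arrays and -0.099 with the factors removed. Their rho of -0.342 had an adjusted permutation p of 0.0790. Slc29a1 and Slc29a2 had an r of 0.399 (p = 0.00867, adjusted 0.0434, permutation test). It was 0.193 without the 2 arrays most extreme for Slc29a1, 0.229 without the 5 arrays and 0.296 with the factors removed. Their rho of 0.292 had an adjusted permutation p of 0.124. The other 12 pairs did not pass an adjusted p of 0.05.

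For each gene the 3 most similar patterns were found by Pearson r over the 59 arrays with the factors removed, as a description over arrays that share groups. They are the highest r values in a search of the kept probesets with 1 gene symbol (19494). Such r values are raised by the selection, and none was tested. Nt5e was most like Ryr3, a calcium release channel (r = 0.67), followed by Stk26 (0.61) and Lyrm2 (0.59). Ada was most like Errfi1, an inhibitor of the EGF receptor (0.59), then Zfp189 and Zfp169. Adk was most like Surf1, a cytochrome c oxidase assembly factor (0.56), then Atp6v1e1 and Alg5, although r with Surf1 was -0.10 in the RMA values. Slc29a1 was closest to Rtbdn (0.56), 2610044O15Rik8 and Ccdc177, for which r in the RMA values was 0.33, -0.17 and 0.12. Slc29a2 was closest to Coq8b (0.59), Fam219a and H13, and Slc29a4 to Fam110a (0.52), Fgf8 and Sipa1l3.

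Of 59 other genes of purine signalling and metabolism, 51 were kept, and 1 was called in any of the 7 comparisons. That call was in SD against CC6, where 1 of 51 is close to the 1.93% of all probesets called. P2ry12, the ADP receptor of microglia, fell after sleep deprivation. SD mice ran from 7.83 over 8.63 to 8.76 and CC6 mice from 8.76 over 8.92 to 9.12, and the groups did not overlap, as for 1.6% of all probesets. The difference was -0.29 (SE 0.06, adjusted p = 0.0032), -0.46 in the RMA values (adjusted p = 0.0031) and -0.25 without the 5 arrays (adjusted p = 0.0049). Of 11 microglial markers kept, P2ry12 was the only one called, and their median difference was 0.01. In recovery P2ry12 was -0.19 in RS2, -0.20 in RS3 and -0.09 in RS6, none called. Over the 9 groups the F test called P2ry12 (adjusted p = 0.0046) and Slc17a9, the vesicular nucleotide transporter (0.0086); the latter ranged from 5.17 in CC6 to 5.57 in RS3 and was not called in the RMA values (0.0208). These 2 of 51 genes stand beside 4.43% of all probesets called by the same F test.

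By role, 9 of 12 genes listed for breakdown of nucleotides outside the cell were kept. They had 0 calls and a median of 0.03 in SD, beside the same 0.00083 over all probesets. The 9 include Entpd5, Entpd6 and Entpd7, and where each enzyme acts was not checked here. Enpp3, an ectophosphodiesterase, had -0.43 in SD (SE 0.13, adjusted p = 0.0437). The 20 genes of adenosine, AMP and IMP metabolism inside the cell had 0 calls and a median of -0.03. Among them Ampd3, an AMP deaminase, had 0.17 in SD (adjusted p = 0.0209) and Ak4, a mitochondrial adenylate kinase, -0.27 in CC11 against CC0 (adjusted p = 0.0146), neither past the threshold; these 3 genes were picked after their values were seen. The 6 genes Slc28a1, Slc28a2, Slc28a3, Slc29a3, Dpp4 and Adora3, the last being the adenosine receptor that was measured, had 0 calls. Adora3 had group means from 5.08 in CC6 to 5.22 in CC7 and a difference of 0.02 in SD (SE 0.08, adjusted p = 0.959). The 16 genes of ATP release and P2 receptors had 1 call, P2ry12. The plot of these gene lists shows most differences within a narrow band.

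**Figure D4:**
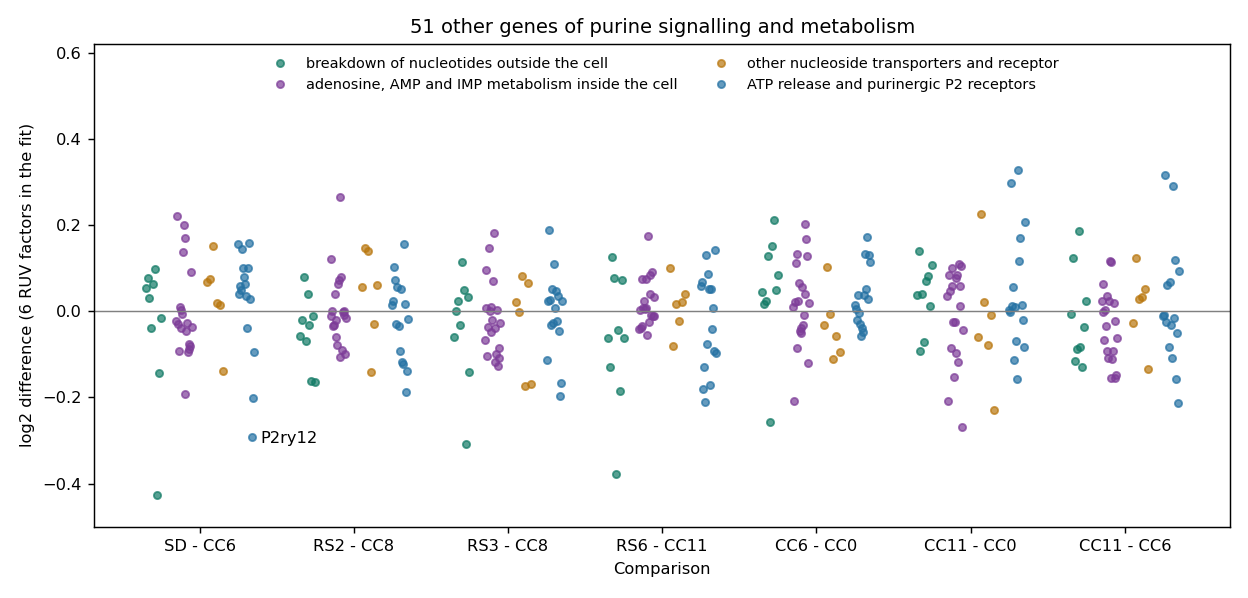
Log2 difference with 6 RUV factors (y axis) of 51 other genes of purine signalling and metabolism in the 7 comparisons (x axis), each point 1 gene, coloured by role. P2ry12 at -0.29 in SD against CC6 is the call among them, and Enpp3 at -0.43 lies lower without passing the threshold.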

How the data were processed

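The authors deposited log2 values per probeset for 60 arrays, made by RMA (version not given in the sources used here); the sources do not say if RUV was applied before deposit. The file holds 41345 probesets. Those over 4 in more than 50% of arrays were kept (32819), of which 19494 carry 1 gene symbol, 1445 several and 11880 none here. RUVs (6 factors, with every kept probeset a control and each of the 9 groups a replicate set) was written out in R 4.3.3, and limma 3.58.1 was fitted once over 59 arrays with groups and factors as terms. The test was checked only on data simulated from its own fit, with planted changes larger than any difference of the 6 genes. That check does not cover changes of the size seen here. The 9 genes, the marker and pathway lists and the tests were chosen with earlier results of these data known. Named genes were all members, pathway genes past FDR 0.01, and the 3 most alike genes per member. The relation with striatum markers was planned for receptors as well, which were not analysed here, and was extended to all 6 genes. Promoter windows are from RefSeq (GRCm38.p6), in which all 6 genes had an entry. Alternatives were the number of RUV factors, filters, normalization, array weights, a replicate block, a marker covariate and arrays left out.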

Additional observations from a re-analysis of the deposited data

Results flagged for a closer look

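Of 54 combinations of 6 genes and 9 groups, 7 held a mouse far from the others of its group by Dixon's criterion, of which chance gives about 1 in 20. Replicate 1 of CC0 stood out for Adk, at 9.44 against 8.93 to 9.13 in the other 6 mice, and for Slc29a4, at 6.22 against 6.52 to 6.66. Replicate 1 of SD stood out for Slc29a2, at 7.51 against 6.85 to 6.98. Both arrays were among the 5 that stood apart on the first principal component. Replicate 1 of CC7 had an Adk value of 8.89 against 9.11 to 9.15, and replicate 7 of CC6 had a Slc29a1 value of 6.22 against 6.50 to 6.65. For Ada, replicate 2 of CC11 was at 4.66 against 4.99 to 5.23 and replicate 2 of RS2 at 4.89 against 4.72 to 4.74. No gene moved one way in every SD mouse and the opposite way in every recovering mouse.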

How the results depend on the processing

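The count of genes called stayed at 0 of those tested in each of the 7 comparisons, the 3 contrasts of recovery with deprivation and both F tests, under each of the 17 alternatives run for them. Of 563 values of single genes under these alternatives, 0 were called, 0 moved by more than the spread between replicates and 57 changed sign; every one of those was at most 0.11 in size to begin with. The smallest adjusted p among these values was 0.162 (Nt5e in SD, RMA values). In the F test over the 9 groups with RMA values alone, Nt5e had an adjusted p of 0.078 and Ada 0.089. The largest move was 0.18, without RUV factors. A filter at 6 left Ada out. No second probeset passed the filter, so that alternative gave no value. Leaving out RS2 mice in turn moved no value by more than 0.09. A replicate block moved values by up to 0.08 and called 0 genes. The authors state that the protocol was run daily with 1 animal per time point. The labels do not say that a number marks a shared day. All but 1 of the arrays that stood apart on the first principal component carried number 1, while other arrays with number 1 did not stand apart. Not every pair of same-numbered arrays correlated over 0.1 (range -0.12 to 0.21), and the numbers were not taken to pair the mice. That rule cannot decide if a number marks a shared day, because mice of a shared day need not all correlate at that level. Whether the numbers mark days was not tested, and the main fit has no term for them. The mean for same-numbered pairs still exceeded that for the other pairs in every comparison but RS6 against CC11, and between 1 of 7 (RS6 against CC11 and both CC11 comparisons) and 4 of 7 (CC6 against CC0) correlated best with their own number. The Pearson r of Nt5e with striatum markers was 0.627 with the replicate block and 0.424 with RUV factors removed. The F test of Slc17a9 passed in 5 of the alternatives and missed in the others, with adjusted p up to 0.0287 (replicate block), and that of P2ry12 missed with the striatum covariate (0.0115); the cause was not tested.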

Other observations

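The array with conflicting labels had log2 RMA values of 9.13 for Adk, 5.16 for Ada, 6.42 for Nt5e, 6.36 for Slc29a1, 6.90 for Slc29a2 and 6.75 for Slc29a4. All 6 lay within the range of the 59 other arrays. Adk, Ada, Slc29a1 and Slc29a4 lay outside the range of the 4 RS2 mice, and Nt5e and Slc29a2 within it.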
